A study of Mus musculus with 8 samples.

Results

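Id2, Id3, Tcf3, Tcf4 and Tcf12 encode the Id proteins and E proteins whose transcripts are described here in Tregs and Tconvs. The members were chosen by name from the 52636 rows of the deposited table. All 5 were found, each on 1 row, and all 5 passed the filter on low values (at least 60 in at least 2 libraries). RNA was taken from 200000 spleen cells per library, sorted as CD4+ Foxp3+ (Tregs) or CD4+ Foxp3- (Tconvs), from mice of 6 to 8 weeks of age. Control mice were CD27+/-. CD70Tg mice were CD11c-Cd70tg;CD27+/- Foxp3 reporter animals, in which the CD11c promoter, active in dendritic cells and some other cells, drives CD70, the ligand of CD27. All mice thus carried 1 functional allele of Cd27. Each of the 4 groups had 2 libraries, which makes 8, and the number of mice behind a library is not given in the sources used here. Nothing says that the libraries of a group came from separate mice, so that p-values measure the spread between these libraries, which may be technical. Before the sort on CD3 and CD4, antibodies and a magnetic column removed NK, B, CD8+ and Ter119+ (erythroid) cells, macrophages, dendritic cells and granulocytes, and for Tconvs, but not Tregs, also CD25+ cells. In GENCODE M21 (GRCm38), Id2 lies at chr12:25093799-25097140 (minus strand), Id3 at chr4:136143497-136145755 (plus strand), Tcf3 at chr10:80409514-80433647 (minus strand), Tcf4 at chr18:69343356-69689079 (plus strand) and Tcf12 at chr9:71842688-72111871 (minus strand). Their exons share 0% of their length with exons of other genes.

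E proteins are basic helix-loop-helix (bHLH) transcription factors that bind E-boxes, DNA sites of the form CANNTG, as homodimers or heterodimers. Tcf3 encodes E12 and E47 (together E2A), Tcf12 encodes HEB and Tcf4 encodes E2-2. Id proteins have the helix-loop-helix through which E proteins pair but lack the basic region that touches DNA, so that an E protein held by an Id protein does not bind its site. In T cells Id3 is known for naive and memory-precursor cells and Id2 for effector cells, and in Tregs both are known to restrain E proteins. Tcf7 and Lef1, in spite of similar names, belong to another family (HMG box) and are not E proteins.

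Values are reads per 20 M reads, as scaled by the authors. The number of reads behind a value was recovered from the value given by 1 read, and lay on genes between 6.94 and 33.4 M in the Tconv libraries and between 1.92 and 4.56 M in the Treg libraries. The labels held in the marker genes: Foxp3 lay between 19769 and 21367 in Tregs and between 1039 and 1497 in Tconvs. Eomes, a T-box factor of effector cells, rose in CD70Tg mice by 4.09 ± 0.188 in Tregs and 3.33 ± 0.188 in Tconvs (log2 fold change ± SE, limma, adjusted p = 2.2e-09 and 4.1e-09). The libraries of a group are called first and second by their order in the table, which is only a name. Some markers of other cells moved with the groups. The summed level of the CD8 T cell markers (Cd8a and Cd8b1, 2 of 2 above the value of 3 reads in every library) was 681 to 720 in control and 1563 to 1590 in CD70Tg Tconvs, and 317 to 417 in control and 631 to 660 in CD70Tg Tregs. Cd8a alone was 17 to 28 in control and 508 to 608 in CD70Tg Tconvs, and 25 to 71 and 223 to 262 in Tregs. Cd8b1 was 653 to 703 in control and 982 to 1055 in CD70Tg Tconvs, and 292 to 346 and 398 to 408 in Tregs. Neutrophil markers (5 genes) summed to 212 to 231 in CD70Tg Tregs and to 34 or less in every other library. Erythroid markers (5 genes) summed to 2406 to 4014 in CD70Tg Tregs and to 1583 or less in every other library. Conventional dendritic cell markers (6 genes) summed to 1488 to 1516 in control and 1917 to 2103 in CD70Tg Tregs, and to 1730 to 1743 in control and 1769 to 2405 in CD70Tg Tconvs. Most of this sum was Cst3. Zbtb46, which defines these cells, was 25 to 27 in control and 191 to 209 in CD70Tg Tregs, and 5 to 9 and 15 to 38 in Tconvs. Itgax, which encodes CD11c, was 31 to 57 in control and 101 to 236 in CD70Tg Tconvs, and 49 to 84 and 74 to 104 in Tregs. Plasmacytoid dendritic cell markers (8 genes) summed to 4287 to 4550 in control and 6085 to 6223 in CD70Tg Tregs, and to 2912 to 3389 and 3118 to 4155 in Tconvs. Among them Irf8 and Runx2, which T cells also express, were higher in CD70Tg Tregs. Irf8 was 835 to 964 in control and 2456 to 2757 in CD70Tg Tregs, and Runx2 423 to 548 and 1338 to 1430. Pacsin1 was lower in CD70Tg Tregs (2120 to 2475 in control and 1436 to 1526), and Ccr9 overlapped. The summed B cell markers were higher in CD70Tg Tregs and lower in CD70Tg Tconvs. None of the 3 tested had an adjusted p under 0.05 in limma, in either subset or in the difference between both responses. Without Ighm, the other 5 B cell markers summed to 254 to 379 in control and 426 to 473 in CD70Tg Tregs. In Tconvs they summed to 151 to 176 in control and 61 to 89 in CD70Tg libraries. Ighm was 36883 to 41126 in control and 48989 to 49097 in CD70Tg Tregs, and 11551 to 12353 and 9945 to 11493 in Tconvs. Macrophage markers (7 genes) summed to 4002 to 4182 in control and 3668 to 3744 in CD70Tg Tregs, and to 1782 to 1860 and 1352 to 1780 in Tconvs. They did not move as one: in CD70Tg Tregs Itgam, Lyz2 and Cd68 were higher and Csf1r, Adgre1, C1qa and C1qb lower.

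Since E proteins bind E-boxes, the 250 bases before the annotated starts of Id2, Id3, Tcf3 and Tcf12 (RefSeq, GRCm38.p6) were searched for CANNTG, which reads the same on both strands. The Id2 window held 1, the Tcf3 window 1 and the window of the first Tcf12 start 1. The Id3 window held none. These matches are printed 5′ to 3′ on the strand of its gene, with the E-box in capitals.
Id2 (chr12:25096271-25096300, minus strand, 196 bases before the start): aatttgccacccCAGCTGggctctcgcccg
Tcf3 (chr10:80433672-80433701, minus strand, 54 bases before the start): agtgggcgtggtCACTTGggggcgtggctt
Tcf12, first start (chr9:72112042-72112069, minus strand, 240 bases before the start): agatgctgccCAGCTGcgtccccgtcgc
None of these stretches overlapped an annotated exon of its own gene. The Id2 stretch and the searched Id3 window (chr4:136143572-136143821) lay inside the GENCODE spans of these genes given above. Both spans begin upstream of the RefSeq starts used here. Of 32536 promoter windows of the same length, 66.2% held at least 1 CANNTG and 13.1% held CAGCTG, the form found at Id2 and at the first Tcf12 start. A match is a description of letters and not a bound site.

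Id2 was higher in CD70Tg mice in both subsets. In Tregs it was 578 and 627 in the control libraries and 1359 and 1262 in the CD70Tg libraries. In Tconvs it was 2292 and 2714 in the control libraries and 4126 and 5606 in the CD70Tg libraries. The groups did not overlap in either subset, and the spread was widest between the CD70Tg Tconv libraries. The group means differed 2.18-fold in Tregs and 1.94-fold in Tconvs. On the log2(value + 5) scale, Id2 rose by 1.11 in Tregs (95% interval 0.80 to 1.43, limma, adjusted p = 1.7e-04). The rise in Tconvs was 0.95 (interval 0.63 to 1.26, adjusted p = 3.9e-04). Of the 12798 genes tested, 3.94% were called higher in CD70Tg Tregs and 6.82% in CD70Tg Tconvs at an adjusted p under 0.05. The Id2 values of Tregs stand on 119 to 232 reads. With bulk libraries, fewer cells that express a gene and less RNA per cell cannot be told apart.

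Id3 moved the other way in both subsets. In Tregs it was 1941 and 1791 in the control libraries and 857 and 936 in the CD70Tg libraries. In Tconvs it was 1948 and 1622 in the control libraries and 922 and 1039 in the CD70Tg libraries. Again the groups did not overlap. The control mean was 2.08 times the CD70Tg mean in Tregs and 1.82 times in Tconvs. Id3 fell by 1.05 on the log2 scale in Tregs (interval -1.34 to -0.76, limma, adjusted p = 1.5e-04) and by 0.86 in Tconvs (-1.15 to -0.57, adjusted p = 4.9e-04). Genes called lower made up 3.46% of those tested in Tregs and 1.98% in Tconvs. Id2 and Id3 are the only Id genes that could be tested: Id1 lay between 5 and 32 in the 8 libraries on 1 to 18 reads, and Id4 was at or under the value of 3 reads in every library. The CD8 T cell, dendritic cell, macrophage, neutrophil and erythroid markers given above also differed with CD70Tg in summed value, in at least 1 subset. So did the B cell markers, although none of those tested was called. The part of all these markers in the Id2 and Id3 results was not tested.

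**Figure D1:**
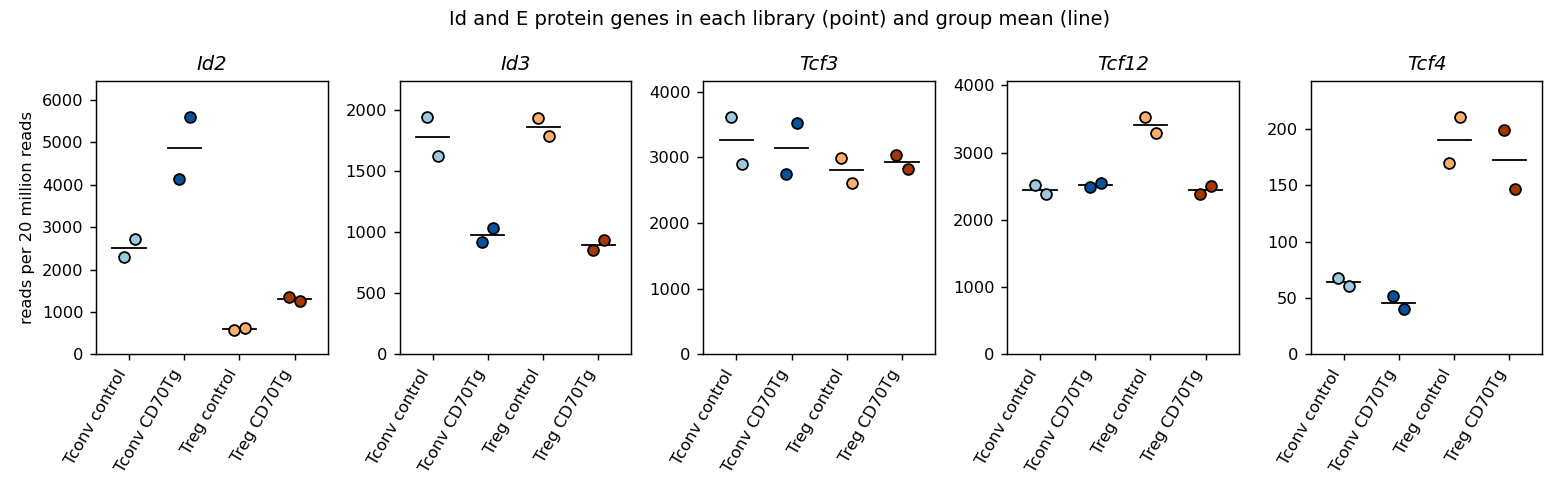
Level of each member (y axis, reads per 20 M reads, starting at 0) in the 8 libraries, by group. Points are libraries and lines are group means of 2 libraries. Id2 is higher and Id3 lower in the CD70Tg libraries of both subsets, Tcf3 overlaps throughout, Tcf12 stands apart in control Tregs (3289 and 3533), and Tcf4 is low everywhere, with 147 to 211 in Tregs and 40 to 68 in Tconvs.

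The E protein genes changed less. Tcf3 lay between 2610 and 3619 in all 8 libraries. In Tregs it was 2994 and 2610 in control and 3041 and 2822 in CD70Tg libraries, and in Tconvs 3619 and 2899 in control and 2749 and 3527 in CD70Tg libraries. The groups overlapped in both subsets, with a log2 fold change of 0.07 in Tregs (interval -0.23 to 0.37, adjusted p = 0.84). The value in Tconvs was -0.06 (interval -0.36 to 0.24, adjusted p = 0.90).

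Tcf12 was lower in the CD70Tg libraries of Tregs. It was 3533 and 3289 in control Tregs and 2383 and 2502 in CD70Tg Tregs, a control mean 1.40 times the CD70Tg mean. It fell by 0.48 on the log2 scale (interval -0.72 to -0.25, adjusted p = 0.014). This call was lost, with adjusted p from 0.062 to 0.20 and a log2 fold change from -0.53 to -0.43, when any of the 4 Treg libraries was left out, each time leaving a lone library on one side. It was also lost without a minimum value (adjusted p = 0.054) and with limma-voom on the recovered reads (adjusted p = 0.070). In Tconvs, Tcf12 was 2514 and 2388 in control and 2490 and 2544 in CD70Tg libraries. These overlapped, with a log2 fold change of 0.04 (interval -0.20 to 0.27, adjusted p = 0.91).

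Tcf4, whose E2-2 protein is best known in plasmacytoid dendritic cells and B cells, had few reads (18 to 66 per library). It was 170 and 211 in control and 199 and 147 in CD70Tg Tregs, which overlapped (log2 fold change -0.14, interval -0.81 to 0.53, adjusted p = 0.85). In Tconvs it was 68 and 61 in control and 52 and 40 in CD70Tg libraries. These did not overlap, but the difference of -0.45 did not pass the test (interval -1.13 to 0.22, adjusted p = 0.51). At 19 reads, the counting interval of the first CD70Tg Treg library alone ran from 119.5 to 310, and covers counting error only.

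Whether the subsets differed in their response was tested as the difference between both responses. None of the 5 members passed in limma, and Tcf12 alone had an unadjusted p under 0.05, where 1370 of 12798 genes did. The difference, Treg response minus Tconv response, was 0.17 for Id2 (interval -0.27 to 0.61, adjusted p = 0.84) and -0.20 for Id3 (-0.61 to 0.21, adjusted p = 0.79). It was -0.52 for Tcf12 (-0.85 to -0.19, unadjusted p = 0.0044, adjusted p = 0.16), 0.12 for Tcf3 (-0.30 to 0.55, adjusted p = 0.89) and 0.31 for Tcf4 (-0.64 to 1.26, adjusted p = 0.88). In this comparison 0.188% of genes were called higher and 0.828% lower. So the fall of Tcf12 called in Tregs was not shown to differ from the Tconv value.

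**Figure D2:**
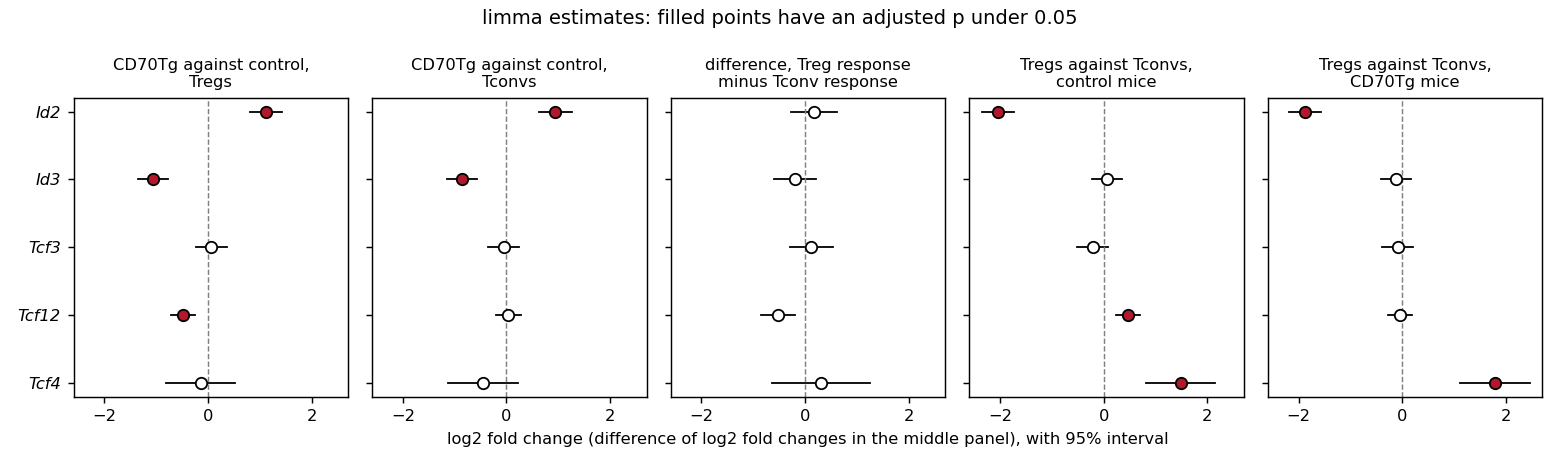
Estimates from limma for each member (rows) in the 5 comparisons (panels). The x axis is the log2 fold change, or in the middle panel the difference of both log2 fold changes, points are estimates, lines are 95% intervals and filled points have an adjusted p under 0.05. Id2 and Id3 lie on opposite sides of 0 in Tregs (1.11 and -1.05) and in Tconvs (0.95 and -0.86), and no point of the middle panel is filled.

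Id2 was lower in Tregs than in Tconvs in both genotypes. The 2 control Treg libraries (578 and 627) lay far under the control Tconv libraries (2292 and 2714), and the CD70Tg Treg libraries (1359 and 1262) lay under all 4 Tconv libraries. The Tconv mean was 4.15 times the Treg mean in control mice and 3.71 times in CD70Tg mice. The log2 differences were -2.04 in control mice (adjusted p = 1.8e-08) and -1.87 in CD70Tg mice (adjusted p = 7.2e-08). These comparisons share libraries with those above, so that the values are not independent of them. In control mice 18.4% of genes were called lower in Tregs and in CD70Tg mice 20.1%. NK cell markers, another population known for Id2, also differed between the subsets. The 5 genes summed to 526 to 1037 in Tconvs, with 4 of 5 above the value of 3 reads, and to 72 to 126 in Tregs, with 1 or 2 above it, and the defining marker Ncr1 was at 0 in every library but the second CD70Tg Tconv library, where it was 2. Within Tconvs, the sum was 691 to 867 in control and 526 to 1037 in CD70Tg libraries, which overlapped. Of the 4 markers tested there, 1 was called higher in CD70Tg Tconvs (Gzma, 46 and 65 against 257 and 661) and 1 lower (Klrb1c, 403 and 423 against 75 and 68). NK cells were among those removed before the sort, and the part of any that remained in the Id2 difference was not tested.

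Tcf4 and Tcf12 were higher in control Tregs than in control Tconvs. The difference was 1.49 for Tcf4 (interval 0.82 to 2.16, limma, adjusted p = 0.0012) and 0.48 for Tcf12 (0.24 to 0.71, adjusted p = 0.0024), where 27.5% of genes were called higher. In CD70Tg mice it was 1.80 for Tcf4 (1.13 to 2.47, adjusted p = 3.0e-04) and -0.04 for Tcf12 (-0.28 to 0.19, adjusted p = 0.78), with 22.6% of genes called higher. The Treg libraries of Tcf4 lay above all Tconv libraries, and the CD70Tg Treg libraries of Tcf12 (2383 and 2502) lay just under and within the range of the Tconv libraries (2388 to 2544). B cell markers moved with Tcf4. Ighm lay at 36883 to 49097 in Tregs and 9945 to 12353 in Tconvs. Cd79b lay at 165 to 272 in Tregs and 35 to 67 in Tconvs, while Cd79a (49 to 126 and 22 to 57) overlapped. The plasmacytoid dendritic cell markers given above were higher in sum in Tregs (4287 to 6223) than in Tconvs (2912 to 4155), mainly in Irf8, Runx2 and Ccr9, which T cells also express. Pacsin1 of the same list overlapped between them (1436 to 2475 in Tregs and 1530 to 2564 in Tconvs). Ly6d, at low values, did not (31 to 60 in Tregs and 15 to 29 in Tconvs). The defining marker Siglech was at 0 in both control Treg libraries and 6 to 11 in CD70Tg Tregs, at or under the value of 3 reads. In Tconvs Siglech was 6 to 28 in control and 0 to 3 in CD70Tg libraries. Macrophage markers (7 genes) summed to 3668 to 4182 in Tregs and 1352 to 1860 in Tconvs. These cells too were among those removed before the sort, and the part of any that remained in the Tcf4 difference was not tested.

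Id3 and Tcf3 did not pass the test between the subsets. The Treg minus Tconv difference of Id3 was 0.07 in control mice (interval -0.22 to 0.36, adjusted p = 0.71) and -0.13 in CD70Tg mice (-0.42 to 0.16, adjusted p = 0.48), and the groups overlapped in both. That of Tcf3 was -0.21 (-0.51 to 0.09, adjusted p = 0.23) and -0.09 (-0.39 to 0.21, adjusted p = 0.65), again with overlap.

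Levels were compared between genes only per length, as values per kb of the union of a gene's exons. In control Tconvs, Id2 (940 and 1113 per kb), Id3 (1088 and 906 per kb) and Tcf3 (896 and 718 per kb) were the 3 highest, with Id2 and Id3 overlapping. In CD70Tg Tconvs, Id2 (1692 and 2299 per kb) stood above Tcf3 (681 and 873 per kb), and Tcf3 above Id3 (515 and 580 per kb). In control Tregs the order was Id3 (1084 and 1000 per kb), Tcf3 (741 and 646 per kb) and Id2 (237 and 257 per kb). In CD70Tg Tregs, Tcf3 (753 and 699 per kb) was above Id2 (557 and 518 per kb) and Id3 (479 and 523 per kb), which overlapped. Tcf12 came after these in every library, at 153 to 228 per kb, and Tcf4 was last, at 1.46 to 7.71 per kb. The place of Tcf12 depends on the length used. Per kb of the longest transcript, it was above Id2 in control Tregs (561 and 522 against 294 and 318) and after the other 3 genes in the remaining groups. Transcripts of 1 gene, such as those of E12 and E47, are not separated by values per gene.

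The make-up of the Id transcripts thus shifted in both subsets. Id2 made up 17.9% and 20.5% of the summed Id2 and Id3 level per kb in control Tregs and 53.8% and 49.8% in CD70Tg Tregs. In Tconvs it made up 46.4% and 55.1% in control and 76.7% and 79.9% in CD70Tg libraries. The share in CD70Tg Tregs lay within the range of the control Tconv libraries. This restates the Id2 and Id3 values per length and is not a further test.

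In the summed Id level, the gain in Id2 stood against the loss in Id3. The ratio of Id2 and Id3 to Tcf3, Tcf4 and Tcf12, per kb, was 1.35 and 1.45 in control and 1.13 and 1.20 in CD70Tg Tregs. In Tconvs it was 1.91 and 2.31 in control and 2.62 and 2.77 in CD70Tg libraries. The CD70Tg libraries thus lay under the controls in Tregs and above them in Tconvs, without overlap, and the ratios in all Tconv libraries exceeded those in all Treg libraries. Neither was tested. Tcf3 made up 74.6 to 84.5% of the E protein level in the 8 libraries per kb of exon union. Per kb of the longest transcript it made up 61.8 to 75.1%. With the longest transcript of each gene in place of the exon union, the ratio was 1.14 and 1.20 in control Tregs, 0.95 and 1.00 in CD70Tg Tregs, 1.65 and 1.93 in control Tconvs and 2.11 and 2.28 in CD70Tg Tconvs, in the same order of groups. Transcripts need not follow protein levels, which were not measured.

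**Figure D3:**
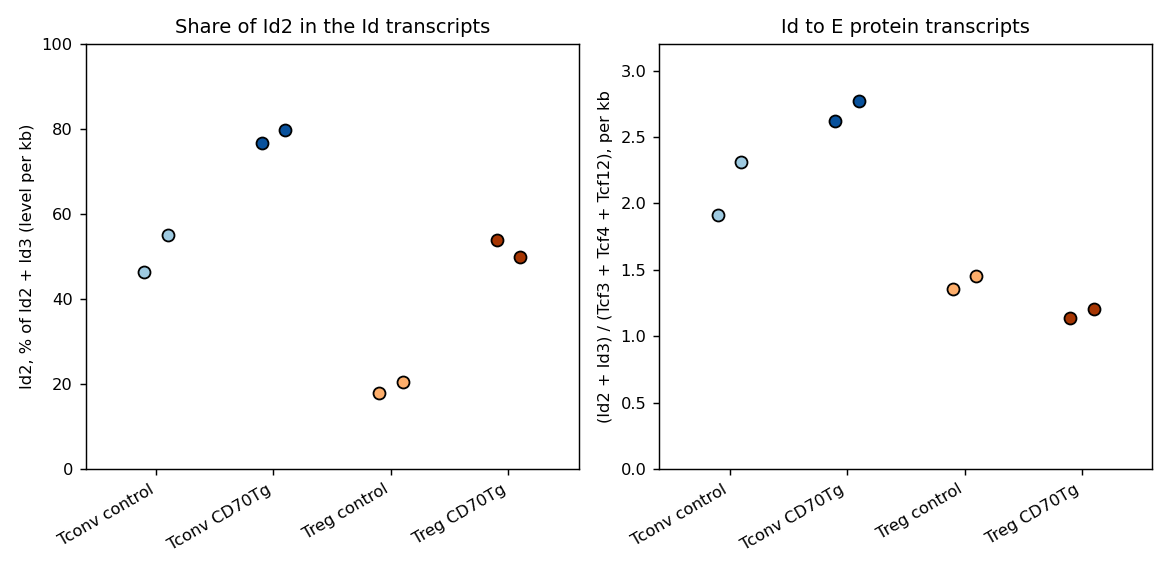
Balance of the members' levels per kb of exon in each library, by group, with both y axes starting at 0. Left, Id2 as percent of Id2 and Id3. Right, ratio of the summed Id level to the summed E protein level. The share of Id2 is higher in CD70Tg libraries of both subsets (49.8 to 53.8% in Tregs, 76.7 to 79.9% in Tconvs), and the ratio is lower in CD70Tg Tregs (1.13 and 1.20) and higher in CD70Tg Tconvs (2.62 and 2.77) than in their controls.

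Among all tested genes, the 3 whose log2 values were most like those of a member over the 8 libraries were named as a description. The 8 libraries share 4 groups and differ in depth, so that any gene that differs between the groups in the same order correlates. For Id2 these were Gpr171, Ddx39 and Adgre5 (Pearson r 0.991, 0.987 and 0.986). For Id3 they were Rgs10, Pacsin1 and Tmem156 (0.978, 0.973 and 0.972). Pacsin1 is also on the list of plasmacytoid dendritic cell markers. Rgs10 lay at 4177 to 4610 in control libraries and at 2696 to 2807 in CD70Tg libraries of both subsets. For Tcf12 they were Zfp507, Ccdc82 and Top2b (0.982, 0.973 and 0.957), and Top2b, encoding topoisomerase II beta, lay at 7185 to 7318 in control Tregs and at 5058 to 5594 in the other libraries. For Tcf3 they included Ndufs1 and Washc1 (0.959 and 0.947), and for Tcf4 Gm11518, Tmc4 and Nol4l (0.995, 0.993 and 0.993). Between members, r was -0.43 for Id2 and Id3, -0.93 for Id2 and Tcf4, -0.74 for Id2 and Tcf12 and 0.60 for Id3 and Tcf12.

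Other genes of the network were read from lists. Of the list genes called, members aside, 6 of 17 in Tregs and 8 of 21 in Tconvs kept an adjusted p under 0.05 when any 1 of the 8 libraries was left out, and 5 and 8 of them did so without a minimum value as well. These alternatives were extended to the list genes after the data were seen. Of 23 tissue-restricted bHLH factors that pair with E proteins, 1 could be tested, Lyl1, a factor of blood progenitors. Its mean was 22 in control and 6 in CD70Tg Tconvs and 108 in control and 62 in CD70Tg Tregs, and neither CD70Tg difference passed (log2 fold change -0.84 and -1.62 in Tregs and Tconvs, adjusted p = 0.41 and 0.086). Of 10 E protein cofactors, 7 were tested, and 1 was called lower in each subset, where 3.46% and 1.98% of all genes were. Kat2a, a histone acetyltransferase, fell by 0.77 in Tregs (adjusted p = 0.0017), and Lmo4, a LIM-only adaptor, fell by 0.74 in Tconvs (adjusted p = 0.041). The call of Kat2a was lost without the first control Treg library (-0.63, adjusted p = 0.060), and that of Lmo4 without any 1 of the 4 Tconv libraries (-0.85 to -0.63, adjusted p from 0.086 to 0.31) and without a minimum value (adjusted p = 0.17). The median of the 7 was -0.22 in Tregs and -0.01 in Tconvs, against -0.05 and 0.01 over all genes tested.

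Of 35 bHLH factors outside this network, 25 were tested. In Tregs 3 were called higher and 2 lower, and in Tconvs 3 higher and 1 lower, where all genes gave 3.94% and 3.46% in Tregs and 6.82% and 1.98% in Tconvs. Bhlhe40, a repressor of activated T cells, rose by 2.06 in Tregs and by 3.91 in Tconvs (adjusted p = 7.2e-05 and 1.6e-08), and this difference between the subsets passed the test (-1.86, adjusted p = 0.013), although not without a minimum value. Mxd1, an antagonist of Myc that pairs with Max, rose by 1.14 in Tregs and by 1.01 in Tconvs (adjusted p = 1.0e-04 and 1.6e-04). Myc fell by 0.45 in Tregs and by 0.51 in Tconvs (adjusted p = 0.025 and 0.0084), and Max, its partner, fell by 0.37 in Tregs (adjusted p = 0.048). Epas1, encoding HIF-2 alpha, rose by 1.76 in Tregs (adjusted p = 9.1e-05), and Hif1a rose by 0.63 in Tconvs (adjusted p = 0.020). The difference between the subsets was also called for Epas1 (1.48, the larger rise in Tregs), where 0.188% of genes were called in that direction. That call was lost without a minimum value and without some single libraries (1.22 to 1.73 when 1 library was left out). The difference of Bhlhe40 was also not called without the second CD70Tg Tconv library (-1.39, adjusted p = 0.060) or the first CD70Tg Treg library (-1.74, adjusted p = 0.083). Hif1a was not called without the second control or the second CD70Tg Tconv library (0.42 and 0.36, adjusted p = 0.23 and 0.27). Myc was not called in Tregs without any 1 Treg library (-0.52 to -0.39, adjusted p from 0.078 to 0.27), nor in Tconvs without the first control library (-0.46, adjusted p = 0.065). Max was not called without any 1 Treg library or either control Tconv library (adjusted p from 0.051 to 0.31). Without a minimum value Hif1a, Myc and Max were not called. The medians over the 25 genes were 0.05 in both subsets.

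Of 18 genes known as E protein targets in developing or mature T cells, 13 were tested. None was called in Tregs by limma. In Tconvs 4 were called higher and 2 lower, against 6.82% and 1.98% of all genes. Cdkn1a, a cell cycle inhibitor, rose by 2.50 (adjusted p = 0.0023), Socs3, an inhibitor of cytokine signaling, by 1.12 (adjusted p = 0.0029), and Gfi1, a transcriptional repressor, by 0.78 (adjusted p = 0.043). Bcl6, the factor of follicular helper cells, fell by 0.83 (adjusted p = 0.026) and Foxo1 fell by 0.51 (adjusted p = 0.012). These calls rest on single libraries, and none was made without a minimum value. Without the second CD70Tg Tconv library, Cdkn1a had 1.76, Socs3 0.87 and Gfi1 0.35 (adjusted p = 0.087, 0.076 and 0.46), and Notch1, the other gene called higher, went from 0.44 to 0.27 (adjusted p = 0.35). Without the second control Tconv library, Gfi1 had 0.61 and Notch1 0.29 (adjusted p = 0.27 and 0.38), and Socs3 had 0.66 and was still called. Without the first CD70Tg Tconv library Gfi1 had 1.22. Gfi1 was also not called without either CD70Tg Treg library (adjusted p = 0.058 and 0.059), nor Notch1 without any 1 Treg library (adjusted p from 0.071 to 0.079). Bcl6 was 555 and 1008 in control and 389 and 451 in CD70Tg libraries, in order of size. It had -0.40 without the first control library and -1.26 without the second (adjusted p = 0.43 and 9.6e-04), and was not called without either CD70Tg library (adjusted p = 0.10 and 0.070). Foxo1 had -0.40 without the first control and -0.41 without the second CD70Tg library (adjusted p = 0.12 and 0.10). Foxp3 itself, on this list, did not pass in either subset (log2 fold change 0.09 and -0.02, adjusted p = 0.77 and 0.96). The medians were 0.09 in Tregs and 0.14 in Tconvs.

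Of 20 regulators known upstream of Id2 or Id3, 19 were tested, with 1 called higher and 2 lower in Tregs and 2 higher and 1 lower in Tconvs. These few calls are to be read against the same shares over all genes (3.94%, 3.46%, 6.82% and 1.98%). The Egr factors, which act downstream of the T cell receptor and are known to induce Id3, had negative log2 fold changes throughout. Egr3 fell by 0.87 in Tconvs (adjusted p = 0.0069) and had -0.46 in Tregs (adjusted p = 0.17). Egr1 had -0.47 in Tregs and -0.45 in Tconvs (adjusted p = 0.16 and 0.18), and Egr2 -0.47 and -0.29 (adjusted p = 0.31 and 0.62). Prdm1, encoding Blimp-1, which is known to repress Id3, was 1582 and 2080 in control libraries and 2853 and 2909 in CD70Tg libraries of Tregs. It rose by 0.67 there (adjusted p = 0.015). In Tconvs it was 239 and 245 in control and 911 and 1129 in CD70Tg libraries, a rise of 2.04 (adjusted p = 1.5e-07). Of TGF-beta signaling, Smad2 fell by 0.64 and Tgfbr1, a receptor, by 0.47 in Tregs (adjusted p = 0.0084 and 0.0496). Stat3 rose by 0.47 in Tconvs (adjusted p = 0.018). Of these calls, that of Prdm1 in Tconvs was the only one that held without a minimum value and without any 1 library. Prdm1 in Tregs was not called without the first control library (0.47, adjusted p = 0.28) or either CD70Tg library (adjusted p = 0.087 and 0.089). Smad2 was not called without the first control or first CD70Tg Treg library (-0.57 and -0.54, adjusted p = 0.14 and 0.096). Tgfbr1 was not called without any 1 Treg library (-0.63 to -0.31, adjusted p from 0.059 to 0.49), the weakest value being that without the first control library. Stat3 was not called without the second control or second CD70Tg Tconv library (0.34 and 0.42, adjusted p = 0.21 and 0.10), nor Egr3 without the first control or first CD70Tg Tconv library (-0.60 and -0.66, adjusted p = 0.12 and 0.054). The medians were -0.17 in Tregs and -0.03 in Tconvs.

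The 12 genes known to be high with Id2 in effector T cells were all tested. In each subset 8 were called higher and none lower by limma, where 3.94% (Tregs) and 6.82% (Tconvs) of all genes were called higher. The list was chosen with earlier results of these data known, so that these counts are no independent test. The paper had already named Ifng, Prf1, Gzmb, Tbx21, Prdm1 and Zeb2 among the upregulated genes. Cx3cr1, a chemokine receptor, rose by 2.92 in Tregs and by 4.22 in Tconvs (adjusted p = 4.2e-05 and 1.5e-07). Prf1, encoding perforin, rose by 2.16 in Tregs and by 1.33 in Tconvs (adjusted p = 3.1e-07 and 1.1e-05). Gzmb, encoding granzyme B, rose by 1.81 in Tregs and by 4.91 in Tconvs (adjusted p = 8.7e-04 and 5.5e-09). The difference between the subsets passed for 4 genes of the list, Gzmb, Klrg1, Bhlhe40 and Prdm1, each with the larger rise in Tconvs, against 0.828% of all genes called in that direction. Without a minimum value, limma made none of these 4 calls and 0 over all 26419 genes then tested, of which 2245 had an unadjusted p under 0.05. Leaving out 1 library also lost the difference of Bhlhe40, as given above, and that of Klrg1 without the second CD70Tg Tconv library (-1.54, adjusted p = 0.096) or any Treg library but the first control (-2.14 to -1.90, adjusted p from 0.064 to 0.10). Within Tregs, Bhlhe40, Cx3cr1 and Prf1 kept their calls without any 1 library and without a minimum value. Gzmb was lost without a minimum value (adjusted p = 0.066). Tbx21 was lost without any 1 Treg library (1.14 to 1.42, adjusted p from 0.063 to 0.12), Klrg1 without the first control (1.31, adjusted p = 0.074), Ifng without either control or the second CD70Tg library (1.26 to 1.74, adjusted p from 0.055 to 0.15) and Prdm1 as given above. Within Tconvs, 7 of the 8 kept them, and S1pr5 was lost without the second CD70Tg library (2.46, adjusted p = 0.17). Il2ra, the gene of CD25, which is high in Tregs, had -0.56 and -0.55 (adjusted p = 0.056 and 0.053). The medians were 1.50 in Tregs and 2.65 in Tconvs. The CD8 T cell markers moved with this list as given above, and their part was not tested.

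The 11 genes known to be high with Id3 in naive or memory-precursor T cells were all tested. In Tregs 2 were called lower, Bach2, a repressor that keeps cells from effector fates (-0.68, adjusted p = 0.0070), and Satb1, a chromatin organizer (-0.50, adjusted p = 0.038). In Tconvs 3 were called lower, Bcl6, Foxo1 and Lef1 (-0.83, -0.51 and -0.45, adjusted p = 0.026, 0.012 and 0.0498). Over all genes 3.46% were called lower in Tregs and 1.98% in Tconvs. None was called higher in either subset. None of these 5 calls held without a minimum value, and for each there were at least 2 libraries whose removal, one at a time, lost it. Bach2 had -0.55 without the first control and -0.56 without the second CD70Tg Treg library (adjusted p = 0.14 and 0.085). Satb1 had -0.35 without the first control and -0.33 without the first CD70Tg Treg library (adjusted p = 0.40 and 0.36). Lef1 had -0.29 without the first control and -0.26 without the second CD70Tg Tconv library (adjusted p = 0.38 and 0.37), and was also not called without any 1 Treg library (adjusted p from 0.074 to 0.082). The values of Bcl6 and Foxo1 are given above. Tcf7, encoding TCF-1, had -0.39 in both subsets (adjusted p = 0.10 in each). Il7r, the receptor for interleukin 7, had 0.57 in Tregs (adjusted p = 0.076) and 0.00 in Tconvs. The medians were -0.30 in Tregs and -0.42 in Tconvs.

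**Figure D4:**
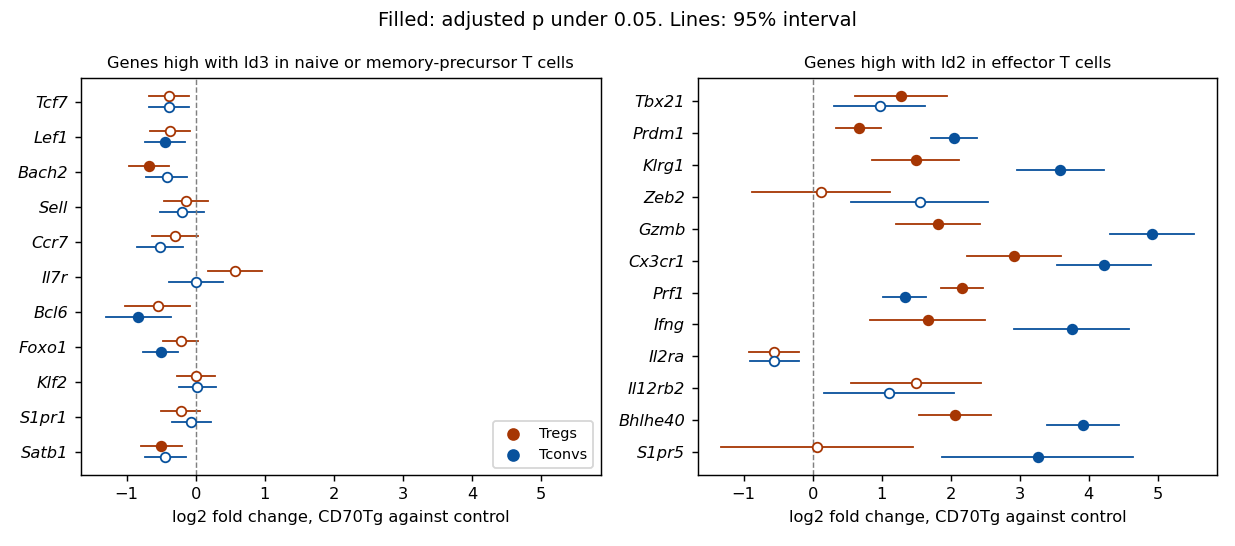
Log2 fold change between CD70Tg and control (x axis, with 95% intervals) of the genes known to be high with Id3 (left) and with Id2 (right), in Tregs and Tconvs. Filled points have an adjusted p under 0.05 by limma. In the right panel 8 of 12 genes are called higher in each subset, and in the left panel 2 of 11 are called lower in Tregs and 3 of 11 in Tconvs.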

How the data were processed

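Score values were deposited by the authors, who trimmed reads with Trimmomatic 0.36, mapped them to mm10 with STAR 2.5.3, counted per gene with HTSeq 0.9.1 and scaled each library to 20 M, rounded up. The strand setting is not given in the sources used here. Controls (CD27+/-) are in the columns named KO, which the sample labels call WT. All low values of a library were multiples of 1 step, rounded up, which gives the number of reads. The steps of the first control and the second CD70Tg Tconv libraries, near or under 1, are less certain. There 97.5% and 100% of whole numbers lie on the step, so that this check could hardly fail. The reads given for these libraries, and limma-voom, rest on these steps. The floor is 3 reads. The 4131 rows named after genomic clones were left out.

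Values were tested with limma 3.58.1 in R 4.3.3, letting the prior variance follow the mean. The 4 groups each had a coefficient, the scale was log2(value + 5), and a gene needed 60 or more in 2 or more libraries, which 12798 did. Adjustment was by the method of Benjamini and Hochberg over all genes within each of 5 contrasts, and genes called at an adjusted p under 0.05. An exact permutation test of 2 against 2 libraries cannot go below 0.333, and none was made. Members and lists were chosen with earlier results of these data known. From each list the called genes with the largest changes, up to 3 per direction, were named, and Egr1, Egr2, Egr3 and Prdm1 in any case. Further genes of the lists (Il2ra, Klrg1, Foxp3, Tcf7, Il7r) and markers were chosen after their values were seen. Positions and exons come from GENCODE M21 (GRCm38). Counting intervals are 95% Poisson intervals. The procedure was tested on simulated data. Alternatives were another pseudocount (1 or 20), other minimum values, other scaling factors, other thresholds, the 4 libraries of a contrast alone, limma-voom on reads, and leaving out each library. Some genes and sequences that these rules cover are not reported.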

Additional observations from a re-analysis of the deposited data

How the results depend on the processing

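No paired analysis was possible because the columns of the table carry no replicate numbers. No called member changed sign under any alternative. Id2 and Id3 kept an adjusted p under 0.05 in all 19 alternatives in both subsets (Id2 1.06 to 1.17 in Tregs and 0.73 to 1.17 in Tconvs, Id3 -1.12 to -0.99 and -0.99 to -0.73, highest adjusted p 0.044, 0.040, 0.025 and 0.024), as did Id2 and Tcf4 between the subsets. With the study's added threshold of 1 on the absolute log2 fold change, Id2 (0.95) and Id3 (-0.86) in Tconvs and Tcf12 (-0.48) in Tregs were not called, which left 0 members called in Tconvs, although 2 had an adjusted p under 0.05 in limma. The thresholds of 0.01 and of the fold change reuse the main fit, so that the adjusted p of every member there was fixed in advance. Tcf12 in Tregs had an adjusted p under 0.05 in 13 of 19 alternatives, and was called by the rule of the alternative itself in 11. It was not under a threshold of 0.01 (-0.48), without a minimum (-0.48), with limma-voom (-0.47) or without any 1 Treg library (-0.53 to -0.43), each of which left 2 members called in Tregs. Leaving out a Tconv library left 3. The cause was not tested. Counts over all genes moved more: 947 (Tregs), 1126 (Tconvs), 130 (difference), 5868 and 5459 (subsets in control and CD70Tg mice) became 260, 364 and 0 for the first 3 without a minimum, where 2245 of 26419 genes had an unadjusted p under 0.05 for the difference. They became 387, 660, 48 and, in CD70Tg mice, 3593 at a threshold of 0.01. With the fold threshold they became 461, 594, 2451 (subsets, control) and 2205 (subsets, CD70Tg). With limma-voom the first 3 became 255, 1999 and 59. The Treg count became 1616 in a fit to the 4 Treg libraries alone. Leaving out each library gave 299 to 1290 (Tregs), 526 to 1554 (Tconvs), 59 to 267 (difference), 3693 to 6310 (control) and 3776 to 5357 (CD70Tg), where the lone library of a group is assumed to vary like the others. The lowest Treg count, 299, came without the first control Treg library, and the lowest Tconv count, 526, without the second CD70Tg library. Tcf4 and the other Id genes rest on few reads, at 66 or fewer per library.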
